A study of Rattus norvegicus with 4 samples.

Results

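The Hox genes code for homeodomain transcription factors that lie in 4 clusters, a to d, and are numbered as paralogs from the 3′ end of a cluster (low numbers) to its 5′ end (high numbers). In the embryo they are switched on in that order, so that low numbers are used in the hindbrain and neck and high numbers in the lower trunk and tail, and the combination a cell holds tends to be kept as a record of its position. Polycomb complexes are the known keepers of silent Hox genes, and Pbx and Meis proteins bind DNA together with Hox proteins. Here the Hox genes are described in 2 clones of PC12, a rat pheochromocytoma line of chromaffin origin: wtPC12, labelled as wild type with low REST, and hrPC12, labelled as high REST, a type of clone that the study describes as arising spontaneously in the line. The labels name no transgene, deletion or treatment in either group. With 1 clone for each REST level, that level and any other difference between the clones cannot be told apart, and RNA was sequenced in 2 libraries per clone. All genes of the count files whose name is Hox followed by a cluster letter and a number were taken, which gave 26 of the 25810 genes listed, with 5 in cluster a, 8 in b, 7 in c and 6 in d. Rat RefSeq (assembly GRCr8) holds 39 such symbols, and the other 13 are in none of the counts, sums and tests of Hox genes below. A row that carries another name of Hoxa5 is described with cluster a.

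The libraries held 20975027 to 27246502 reads on genes. Counts were divided by the effective size of each library (TMM, a scaling factor of edgeR), and the result is called the normalized count. It is not divided by gene length, so levels are compared between clones and not between genes. Rest, the repressor by which the clones are labelled, had 37 and 128 reads in the wtPC12 libraries and 1139 and 904 in the hrPC12 libraries, in the direction of the labels. For Rest the log2 FC was 3.42 (standard error 0.57, edgeR adjusted p = 0.0115), short of the adjusted p of 0.01 asked for below. Of 8 tested chromaffin marker genes 5 were downregulated in hrPC12 in the sense defined below (5.46% of all tested genes). Th was still at 20755 reads or more in each library. The list summed to 816734 to 955351 normalized counts in wtPC12 and 47390.0 to 51442 in hrPC12. Most of the wtPC12 sum was Chgb (687936 and 626776 normalized counts), and the largest part of the hrPC12 sum was Ddc (26281 and 27995). Ddc, Gata3 and Hand2 were not downregulated, with log2 FC of 0.27, −0.03 and −0.85. Of 9 tested mesenchymal markers 6 were upregulated (4.84% of all tested genes). Their list summed to 16321 to 18105 in wtPC12 and 95443 to 100194 in hrPC12, Lum being at 0 in wtPC12. In that list 2 others, Thy1 and Dcn, were lower in hrPC12 at an edgeR adjusted p under 0.05, with log2 FC of −0.99 and −3.10. Most of the sum was Thy1 in wtPC12 (17929 and 16186 normalized counts) and Col3a1 in hrPC12 (83801 and 88143). The 8 white blood cell markers summed to 23.3 normalized counts or less in every library. The part of these differences in the Hox values was not tested, and in RNA of whole cultures fewer cells that express a gene and less RNA per cell cannot be told apart.

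Promoter sequences are shown for 3 Hox genes that stand for the patterns described below: Hoxc4, lower in hrPC12, Hoxa6, above the floor of detection in wtPC12 only, and Hoxd10, read in hrPC12 only. They run from 250 bases before to 50 after the start of the gene, 5′ to 3′ on the strand of the gene, and come from RefSeq with its build GRCr8, where 12 of the 26 genes had an entry and Hoxb13 had none. The reads themselves were aligned to an older build, rn4. Capitals mark the motif AGGTCA, the half-site of retinoic acid receptors, on either strand.
Hoxc4 (GRCr8 chr7:136048809-136049108, plus strand): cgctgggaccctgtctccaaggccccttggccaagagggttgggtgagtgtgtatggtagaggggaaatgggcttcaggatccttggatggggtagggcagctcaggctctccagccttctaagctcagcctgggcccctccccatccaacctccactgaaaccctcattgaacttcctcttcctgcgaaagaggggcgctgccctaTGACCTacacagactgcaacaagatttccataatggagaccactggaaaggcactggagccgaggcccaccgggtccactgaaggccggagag
Hoxa6 (GRCr8 chr4:82639414-82639713, minus strand): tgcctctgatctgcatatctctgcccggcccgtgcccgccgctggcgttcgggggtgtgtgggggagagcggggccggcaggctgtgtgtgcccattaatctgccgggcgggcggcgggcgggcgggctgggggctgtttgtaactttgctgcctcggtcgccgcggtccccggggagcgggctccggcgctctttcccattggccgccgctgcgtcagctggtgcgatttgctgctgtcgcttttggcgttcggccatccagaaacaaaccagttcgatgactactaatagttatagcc
Hoxd10 (GRCr8 chr3:80001697-80001996, plus strand): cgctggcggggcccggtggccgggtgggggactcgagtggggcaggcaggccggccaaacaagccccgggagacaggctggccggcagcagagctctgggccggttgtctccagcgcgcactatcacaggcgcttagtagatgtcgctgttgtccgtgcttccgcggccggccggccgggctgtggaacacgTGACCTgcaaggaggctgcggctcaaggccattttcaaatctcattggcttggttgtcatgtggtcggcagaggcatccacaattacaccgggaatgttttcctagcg

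Both motif matches lie on the minus strand relative to the gene, and the GC content of the 3 sequences was 59.0%, 66.0% and 64.7% in the order shown, against a median of 51.7% over all 33469 promoters of that length. AGGTCA on either strand was found in 3 of the 12 Hox promoters (Hoxc4, Hoxd4 and Hoxd10) and in 16.2% of all promoters. Of the parts of the site that REST binds, TTCAGCACC on either strand was found in 1 of the 12 (Hoxd12) and 0.356% of all, and GGACAG in 1 of the 12 (Hoxd1) and 21.7% of all. TGATNNAT, a motif bound by Hox proteins with Pbx, occurred in 2 of the 12 (Hoxa2 and Hoxb1) and 9.1% of all. None of the 4 motifs was found in the Hoxa6 window. These are matches of letters in a short window and not binding sites.

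A count of at most 3 reads in both libraries of a clone (2.54 to 3.49 normalized counts) was taken as the floor of detection, a limit that covers counting error only. In both clones 8 of the 26 Hox genes (30.8%) were at the floor, where 39.9% of all listed genes had at most 3 reads in each library. Of these, 4 had 0 reads in all 4 libraries, Hoxa13, Hoxd12 and Hoxd13 among them, while Hoxa2, Hoxa9, Hoxb1 and Hoxc13 had 1 to 3 reads in at least 1 library. The paralog 13 genes of clusters a, c and d were thus at the floor, while Hoxb13 was above it. Hoxa6 was at the floor in hrPC12 only, and Hoxc12 and Hoxd10 in wtPC12 only. The remaining 15 genes were above the floor in both clones. The plot of normalized counts by library shows the levels of the 22 genes with a read.

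**Figure D1:**
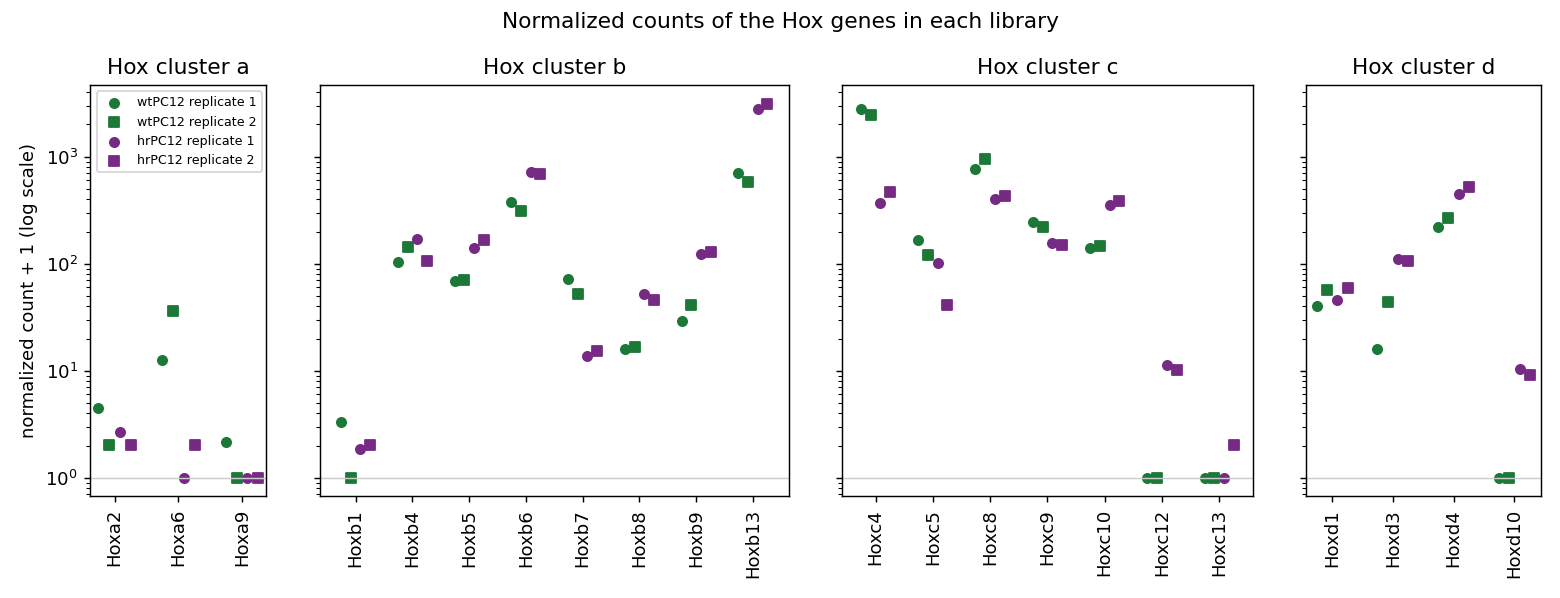
Normalized counts of the 22 Hox genes with a read in any library, plus 1, on a log axis, with 1 point for each library (green wtPC12, purple hrPC12; circles replicate 1, squares replicate 2) and 1 panel for each cluster. Points on the grey line have 0 reads in that library. In Hoxb13 both hrPC12 libraries (2783 and 3132) lie above both wtPC12 libraries (706 and 581), and in Hoxc4 below them.

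Summed over each cluster, cluster b had the higher and cluster c the lower count in hrPC12, while the total over the 4 clusters was similar in the clones. The 26 genes summed to 5737 and 5515 normalized counts in the wtPC12 libraries and to 5995 and 6444 in the hrPC12 libraries, a difference of means of 1.11-fold. Cluster b summed to 1370.3 and 1215 in wtPC12 and to 3992 and 4278 in hrPC12, which is 3.2-fold higher. Cluster c summed to 4076 and 3902 in wtPC12 and to 1392 and 1477 in hrPC12, 2.78-fold lower. Hoxb13 alone had means of 643.5 in wtPC12 and 2957 in hrPC12, of cluster b means of 1292.4 and 4134.8. Hoxc4 alone had means of 2612 and 420.1, of cluster c means of 3989 and 1434.5. Much of the difference in these sums thus lay in a single gene of each cluster.

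In cluster d the sums were 274.5 and 362.6 in wtPC12 and 610.4 and 687.0 in hrPC12, 2.04-fold higher. Cluster a summed to 16.3 and 36.1 in wtPC12 and to 1.69 and 2.02 in hrPC12, the wtPC12 reads being mostly those of Hoxa6. That sum leaves out Hoxa5, which is listed under another name. The clones did not overlap in any of the 4 clusters. By position, the 10 genes of paralogs 4 to 8 summed to a mean of 4496 ± 90.9 normalized counts in wtPC12 and of 2441 ± 43.0 in hrPC12 (SD, n = 2 each). For the 11 genes of paralogs 9 to 13 the means were 1050.2 ± 94.0 and 3619 ± 269, and for the 5 of paralogs 1 to 3 they were 80.2 ± 27.9 and 160.8 ± 5.88 (SD, n = 2 each). Without Hoxc4, the other 9 genes of paralogs 4 to 8 summed to 1798 and 1969.5 normalized counts in wtPC12 and to 2039 and 2002 in hrPC12, so that the lower sum of this block rested on that gene. Without Hoxb13, the other 10 genes of paralogs 9 to 13 summed to 410.6 and 402.8 in wtPC12 and to 645.9 and 676.9 in hrPC12. With 2 libraries against 2, an exact permutation test of a single sum has too few arrangements to reach a p of 0.05, so these sums carry no test.

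**Figure D2:**
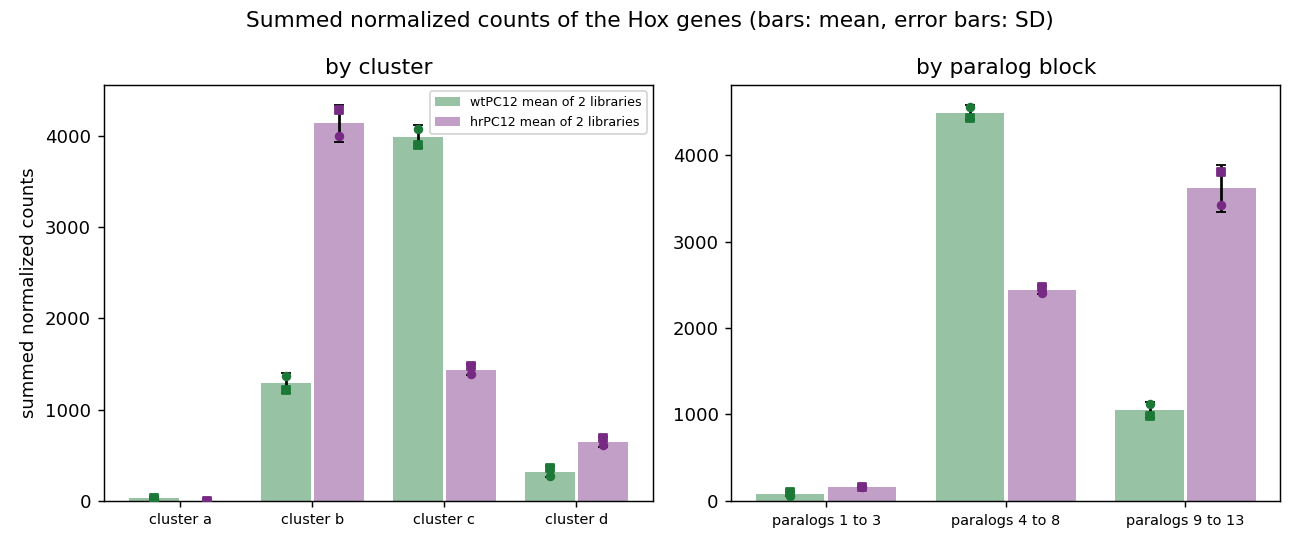
Summed normalized counts of the Hox genes by cluster (left) and by paralog block (right), on an axis from 0. Bars are means of 2 libraries per clone, error bars their SD, and points the libraries. Cluster b was higher and cluster c lower in hrPC12, and the mean of paralogs 9 to 13 was 1050.2 in wtPC12 and 3619 in hrPC12.

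Genes entered the test if they averaged 5 or more normalized counts and had a read in each clone, which 16 of the 26 Hox genes and 13726 genes in all did. The quasi-likelihood test of edgeR was used, and downregulated and upregulated stand for genes with an adjusted p below 0.01 and a log2 fold change (log2 FC, hrPC12 over wtPC12) past 2 in that direction. Of the 16 Hox genes 1 was downregulated (6.25%, where all tested genes gave 5.46%) and 1 upregulated (6.25%, where all gave 4.84%), which is close to the background. At an adjusted p under 0.05 and any size, a threshold added after the values were seen, 4 of the 16 were lower (25%, all genes 16.3%) and 7 higher (43.8%, all genes 16.1%). By DESeq2 Hoxb8 missed the 0.05 level (adjusted p = 0.0929), while Hoxd3, which missed it by edgeR, passed it (adjusted p = 0.0231). In 14 of the 16 genes (87.5%) the libraries of the clones did not overlap, as in 73.5% of all tested genes. The median log2 FC was 0.57 over the 16 and 0.06 over all tested genes, and the median of its absolute size 1.26 and 0.74. No test was made of the Hox genes as a set.

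Hoxc4, the 3′-most gene of its cluster, had 2374 and 2390 reads in wtPC12 and 439 and 463 in hrPC12. In normalized counts the means were 2612 ± 212 and 420.1 ± 68.5 (SD, n = 2 each). Both hrPC12 libraries were below both wtPC12 libraries, and Hoxc4 was downregulated with a log2 FC of −2.64 (standard error 0.22, edgeR adjusted p = 0.00155), or 6.22-fold. In RefSeq the spans of Hoxc4 and Hoxc5 both overlap that of Hoxc6, a gene not analysed here, so the assignment of reads in the overlap is uncertain.

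Hoxb13, the 5′-most gene of cluster b, is a paralog 13 gene known from the tail bud and the prostate. It had 607 and 564 reads in wtPC12 and 3287 and 3095 in hrPC12, or 643.5 ± 88.5 and 2957 ± 247 normalized counts (SD, n = 2 each). The libraries of the clones lay well apart, and Hoxb13 was upregulated with a log2 FC of 2.20 (standard error 0.21, edgeR adjusted p = 0.0021), or 4.6-fold. It is the only paralog 13 gene with reads above the floor, Hoxa13 and Hoxd13 having 0 reads and Hoxc13 1 read in a single hrPC12 library. With each library left out in turn, the log2 FC lay between 2.07 and 2.32 for Hoxb13 and between −2.86 and −2.48 for Hoxc4. Without wtPC12 replicate 2 no gene of 13590 tested passed both thresholds by edgeR, the adjusted p of Hoxb13 being 0.0194 and that of Hoxc4 0.0195.

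The other genes of cluster b were not past both thresholds, and all that were tested other than Hoxb4 had an edgeR adjusted p under 0.05. Hoxb4, known from blood stem cells, had 103.5 and 143.2 normalized counts in wtPC12 and 167.6 and 104.2 in hrPC12, so that the clones overlapped, and a log2 FC of 0.14 (standard error 0.39). Hoxb5, which acts in neural crest cells of the gut, had 68.6 and 70.0 in wtPC12 and 140.5 and 167.0 in hrPC12, giving a log2 FC of 1.15 (standard error 0.31, edgeR adjusted p = 0.0443). Hoxb6 had 375.7 and 313.1 against 715.3 and 687.0, a log2 FC of 1.03 (standard error 0.24, edgeR adjusted p = 0.0292). For both genes the hrPC12 libraries were above the wtPC12 libraries.

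Hoxb7, a gene known from the ureteric bud of the kidney, differed in the other direction. It had 71.0 and 51.5 normalized counts in wtPC12 and 12.7 and 14.2 in hrPC12. It was 4.53-fold lower, at a log2 FC of −2.18 (standard error 0.42, edgeR adjusted p = 0.0182), although the genes on either side of it, Hoxb6 and Hoxb8, were higher in hrPC12. It passed both thresholds when every gene with a read was tested (adjusted p = 0.00823, edgeR).

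Hoxb8, known from microglia, had 15.1 and 15.5 normalized counts in wtPC12 and 50.8 and 44.5 in hrPC12, giving a log2 FC of 1.63 (standard error 0.40, edgeR adjusted p = 0.034). Hoxb9, used at the thoracic level, had 27.9 and 40.2 against 121.1 and 128.5, a log2 FC of 1.87 (standard error 0.37, edgeR adjusted p = 0.0189). Both were higher in both hrPC12 libraries. Hoxb1, a hindbrain gene, had 2 reads or fewer in every library. RefSeq places the antisense gene Hoxb5os across Hoxb5 and Hoxb6, and the library kit named in the labels does not keep the strand, so reads of that RNA and of these genes cannot be told apart.

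In cluster c the log2 FC was negative for Hoxc4, Hoxc5, Hoxc8 and Hoxc9 and positive for Hoxc10, and Hoxc12 had reads in hrPC12 only. Hoxc5, which acts in motor neurons of the neck, had 164.0 and 120.5 normalized counts in wtPC12 and 99.9 and 40.5 in hrPC12, for a log2 FC of −1.01 (standard error 0.52, edgeR adjusted p = 0.184). Its hrPC12 libraries differed 2.47-fold from each other, the widest such ratio among the tested Hox genes with reads in both. Hoxc8, which marks brachial motor neurons, had 768.9 and 957.0 against 404.7 and 428.0, a log2 FC of −1.05 (standard error 0.23, edgeR adjusted p = 0.0268).

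Hoxc9, a gene of thoracic motor neurons, had 242.0 and 218.4 normalized counts in wtPC12 and 154.9 and 149.8 in hrPC12. The libraries did not overlap, but the log2 FC of −0.59 (standard error 0.27, edgeR adjusted p = 0.15) did not pass. Hoxc10, used at the lumbar level, had 139.6 and 144.2 against 350.5 and 380.5, a log2 FC of 1.36 (standard error 0.26, edgeR adjusted p = 0.0179). Hoxc12 had 0 reads in both wtPC12 libraries and 12 and 9 reads in hrPC12, which makes it at least 2.93-fold higher. It was too low in the mean for the test.

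Cluster d held 3 genes that could be tested. Hoxd4, a gene of the hindbrain and neck, had 219.9 and 263.7 normalized counts in wtPC12 and 447.0 and 516.0 in hrPC12, at a log2 FC of 0.99 (standard error 0.26, edgeR adjusted p = 0.0417). Its span in RefSeq overlaps the microRNA gene Mir10b and a long noncoding RNA. Hoxd3, its neighbour in 3′ direction, had 15.1 and 43.3 against 109.2 and 105.2, a log2 FC of 1.86 (standard error 0.56, edgeR adjusted p = 0.0564). In both genes the hrPC12 libraries were above the wtPC12 libraries, but the wtPC12 libraries differed for Hoxd3, and the value moved to 2.82 when wtPC12 replicate 2 was left out and to 1.28 when replicate 1 was.

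Hoxd1, which acts in pain-sensing neurons, had 39.6 and 55.6 normalized counts in wtPC12 and 44.9 and 57.7 in hrPC12. The clones overlapped, and the log2 FC was 0.10 (standard error 0.40). Hoxd10, a lumbar gene like Hoxc10, had 0 reads in both wtPC12 libraries and 11 and 8 in hrPC12, at least 2.65-fold higher. As paralogs, Hoxc10 and Hoxd10 were thus both higher in hrPC12, the first by the test at an adjusted p under 0.05 and the second by a bound on few reads.

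Of the 5 genes taken from cluster a only Hoxa6 had reads above the floor. It had 10 and 34 reads in wtPC12 and 0 and 1 in hrPC12, at least 8.37-fold lower in hrPC12 (edgeR adjusted p = 0.0247). This bound was 12.6-fold without wtPC12 replicate 1 and 4.17-fold without wtPC12 replicate 2. Its wtPC12 libraries differed from each other about as Rest did, with 0.332 times as many normalized counts in replicate 1 as in replicate 2 (0.326 for Rest and 0.35 for Hoxd3). The part of the Rest level in this was not tested. In RefSeq the span of Hoxa6 overlaps those of Hoxa3 and of the antisense gene Hoxaas3. A pair of rows outside the naming rule were looked up after the values were seen. The row named HXA5_RAT, which carries the protein name of Hoxa5, the gene next to Hoxa6, had 28 and 27 reads in wtPC12 and 0 in both hrPC12 libraries, at least 10.8-fold lower. The row Hoxa9l had 1 read in all. RefSeq gives Hoxa9 as an older name of Hoxa7 and Hoxa9l as one of Hoxa9, and with 1 read on Hoxa9 this does not touch a result.

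**Figure D3:**
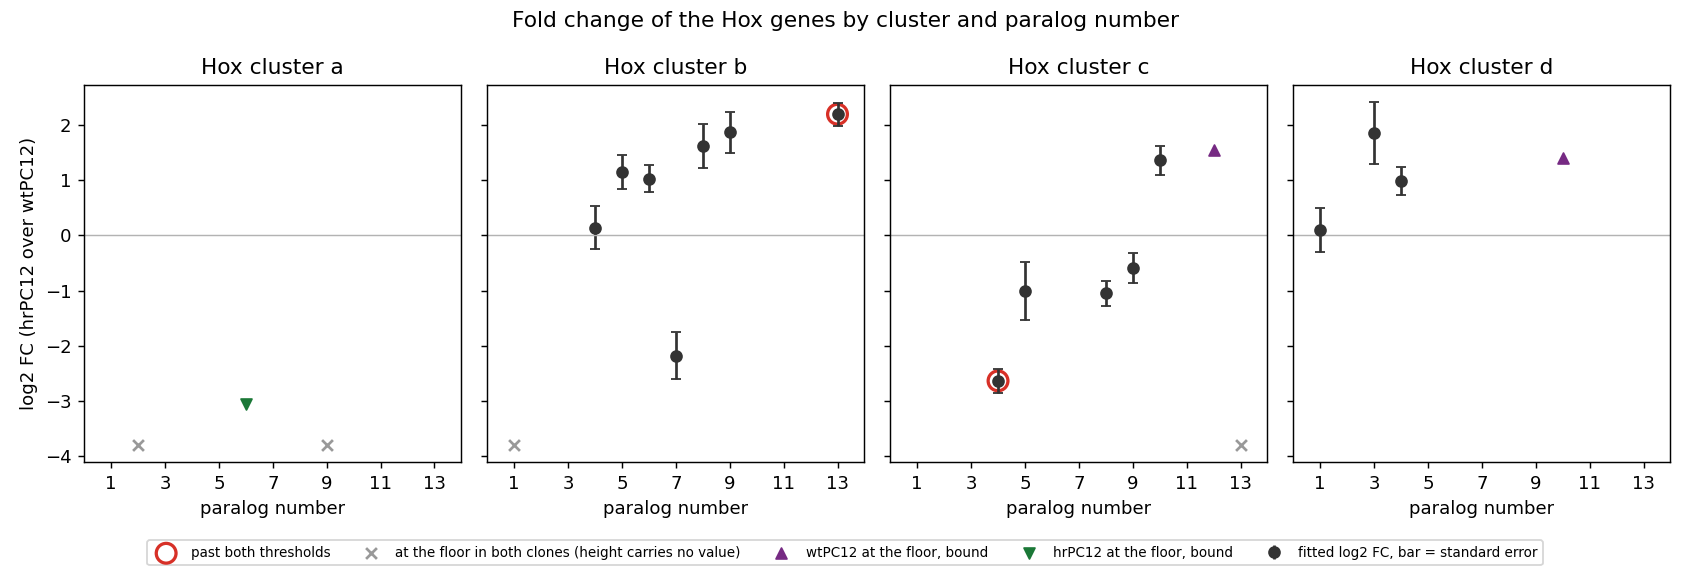
Fitted log2 FC of the Hox genes (hrPC12 over wtPC12, vertical axis) by paralog number (horizontal axis), 1 panel per cluster, with standard errors as bars. Red rings mark the 2 genes past both thresholds (Hoxb13 and Hoxc4), triangles the bounds of genes at the floor in 1 clone (up, at least that much higher; down, at least that much lower), and crosses genes with a read that were at the floor in both clones, whose height carries no value. In cluster c the values go from −2.64 at Hoxc4 to 1.36 at Hoxc10, and in cluster b Hoxb7 stands below its neighbours.

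Along clusters b and c, genes of higher number tended to have the higher log2 FC, with Hoxb7 (−2.18) going against that order. Over the 5 tested genes of cluster c Spearman's rho between paralog number and log2 FC was 0.90, and over the 7 of cluster b it was 0.75, as a description over a few neighbouring genes that share libraries. Cluster d, with 3 tested genes, had a rho of 0.5 and its highest value at Hoxd3. The same number did not mean the same direction in different clusters: of paralog 4, Hoxc4 was downregulated, Hoxd4 was higher and Hoxb4 overlapped between the clones. Of paralog 9, Hoxb9 had a log2 FC of 1.87 and Hoxc9 of −0.59, and of paralog 8, Hoxb8 had 1.63 and Hoxc8 −1.05. Of these 4 genes Hoxc9 was past no threshold (edgeR adjusted p = 0.15).

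The make-up of each cluster's reads changed accordingly. Hoxc4 held 67.8% and 63.1% of the reads on cluster c in the wtPC12 libraries and 26.7% and 31.7% in the hrPC12 libraries. Hoxc10 held 3.42% and 3.7% in wtPC12 and 25.2% and 25.8% in hrPC12. Hoxc8 went from 21.7% ± 4.0 to 29.0% ± 0.0727 (SD, n = 2 each) although its own count was lower, the count of Hoxc4 being lower by a larger factor.

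In cluster b, Hoxb13 held 49.7% ± 2.61 of the reads in wtPC12 and 71.5% ± 2.47 in hrPC12 (SD, n = 2 each). Hoxb7 held 4.71% ± 0.663 and 0.325% ± 0.00919 (SD, n = 2 each). Hoxb6 held 27.4% and 25.8% in wtPC12 and 17.9% and 16.1% in hrPC12 while its normalized count was higher. In cluster d the share of Hoxd4 was 76.4% ± 5.2 and 74.2% ± 1.33 (SD, n = 2 each), a difference smaller than the spread in wtPC12. For each of these shares other than that of Hoxd4 the 2 clones did not overlap, which at 2 libraries each carries no test.

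**Figure D4:**
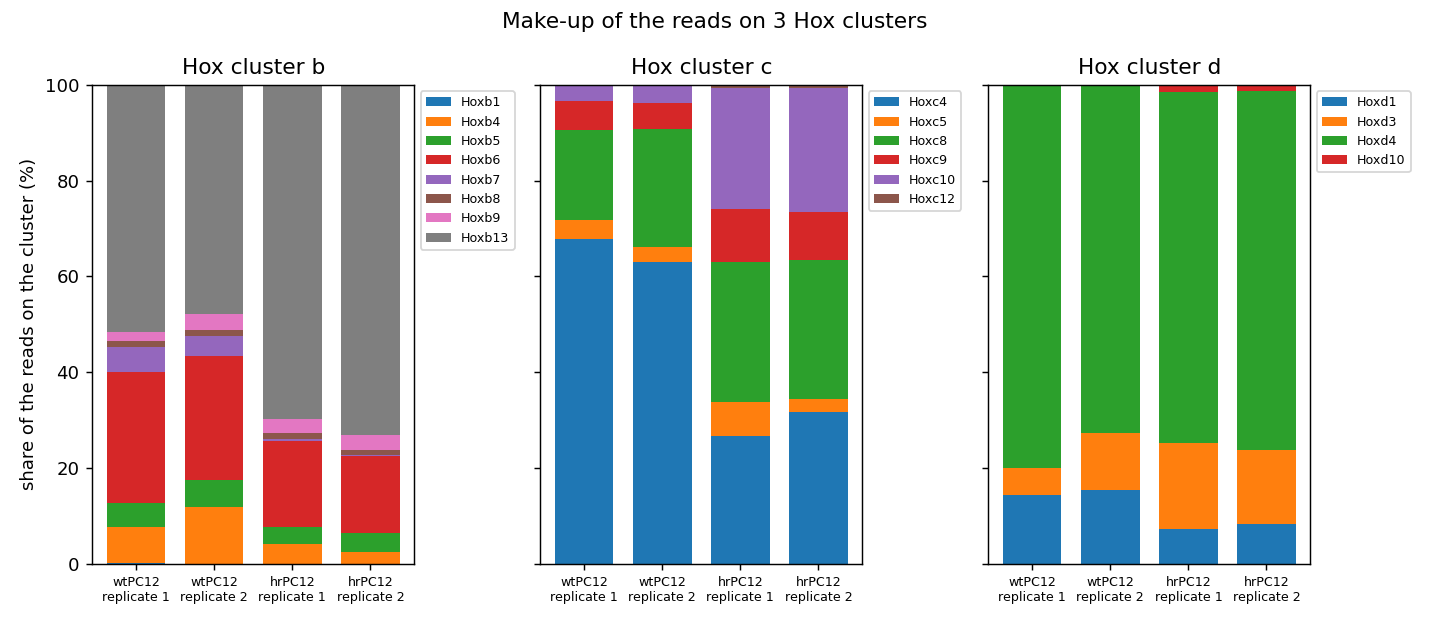
Share of the reads on each of clusters b, c and d (vertical axis, percent) that fell on each Hox gene, 1 stacked bar per library. Hoxc4 fills 67.8% and 63.1% of cluster c in wtPC12 and 26.7% and 31.7% in hrPC12, Hoxc10 takes a larger part there, and Hoxb13 fills 71.5% of cluster b in the mean of hrPC12.

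The partners of Hox proteins were read in both clones. Of 9 genes of such partners 8 were in the counts and tested, and 0 passed both thresholds by edgeR, where 1 (higher) did by DESeq2. At an unadjusted p under 0.05 by edgeR 2 were lower and 3 higher, where 22.7% of all tested genes were lower and 23.6% higher, and at an adjusted p under 0.05 there were 2 of each. Meis2 had 34.9 and 28.8 against 129.5 and 125.5, a log2 FC of 2.00 (standard error 0.34, edgeR adjusted p = 0.0128). Pbx2 was lower, at 2703 ± 13.7 normalized counts against 1237 ± 39.9 (SD, n = 2 each) and an edgeR adjusted p of 0.00852.

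Cdx factors and retinoic acid switch on Hox genes in the embryo. Of 18 genes of these routes 16 were in the counts and 8 tested, of which 2 were downregulated (5.46% of all tested genes). In the other direction 0 passed by edgeR or DESeq2. At an unadjusted p under 0.05 by edgeR 4 of the 8 were lower and 0 higher (22.7% and 23.6% of all tested genes). At an adjusted p under 0.05 there were also 4 lower and 0 higher (16.3% and 16.1% of all). Aldh1a1, which makes retinoic acid, had 470.0 and 320.4 normalized counts in wtPC12 and 7.62 and 7.08 in hrPC12, for a log2 FC of −5.72 (standard error 0.41, edgeR adjusted p = 0.00105). Aldh1a2, another enzyme that makes it, was too low for the test, with 0 reads in both wtPC12 libraries and 8 in each hrPC12 library, at least 2.26-fold higher. Crabp1, which binds retinoic acid in the cytosol, had 240.8 and 137.0 against 6.77 and 6.07, a log2 FC of −4.85 (standard error 0.50, edgeR adjusted p = 0.00279). The 3 Cdx genes had 1 read or none in every library. The median log2 FC of the 8 was −0.57.

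Polycomb genes keep Hox genes silent, and Trithorax genes keep them active. Of the 14 Polycomb genes tested 0 passed both thresholds by edgeR or DESeq2. At an unadjusted p under 0.05 by edgeR 7 were lower and 2 higher (22.7% and 23.6% of all tested genes), and at an adjusted p under 0.05 5 were lower and 1 higher (16.3% and 16.1% of all). Their median log2 FC was −0.34. A second list held Trithorax genes together with the H3K27 demethylases and with Ctcf and Rad21, which organize chromatin loops. Of its 8 tested genes 0 passed both thresholds by edgeR or DESeq2, 2 were lower at both an unadjusted and an adjusted p under 0.05 by edgeR, and the median log2 FC was −0.30. Cbx7, a subunit that reads the Polycomb mark, had 2165 and 2214 normalized counts in wtPC12 and 697.6 and 848.9 in hrPC12, at a log2 FC of −1.50 (standard error 0.20, edgeR adjusted p = 0.00622). Ezh2, the subunit that writes that mark, was the gene that was higher, with 1275 and 1319.6 normalized counts in wtPC12 and 2369 and 2395 in hrPC12, at a log2 FC of 0.88 (standard error 0.17, edgeR adjusted p = 0.018). Phc2, of the other Polycomb complex, had a log2 FC of 1.08 (standard error 0.32, edgeR adjusted p = 0.0537). Phf19, a partner of the methylating complex, had a log2 FC of −1.34, and Ring1, a ubiquitin ligase subunit, of −1.18. In the second list, Ash2l, a core subunit of the H3K4 methylating complexes, had −0.90 (edgeR adjusted p = 0.0147), Men1 −0.75 and Kdm6b, an eraser of the Polycomb mark, −0.62 (edgeR adjusted p = 0.126).

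Genes that flank the clusters were set beside the Hox genes between them, 41 of the 42 listed being placed in RefSeq and lying within 7 coding genes of a cluster. Of the 42, 36 were in the counts and 30 tested, with a median log2 FC of 0.49. Upregulated were 2 of the 30, where 4.84% of all tested genes were. Downregulated were 0 by edgeR and 0 by DESeq2. At an unadjusted p under 0.05 by edgeR 3 were lower and 11 higher (22.7% and 23.6% of all tested genes). At an adjusted p under 0.05 there were 2 lower and 10 higher (16.3% and 16.1% of all). Next to cluster b, Skap1 at its 3′ end had 1.16 and 2.06 normalized counts in wtPC12 and 86.3 and 84.0 in hrPC12, which is at least 25.9-fold higher (edgeR adjusted p = 0.00217). Ttll6, which follows Hoxb13 at the other end, had 1.16 and 3.09 against 139.7 and 72.9, at least 32.3-fold higher (edgeR adjusted p = 0.00499). Between them, the Hox genes of cluster b had a log2 FC of 2.20 or less.

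Igf2bp1, further out on the side of Ttll6, had 0 reads in wtPC12 and 18 and 16 in hrPC12, at least 4.78-fold higher. Around cluster a, 5 of 7 tested neighbours were higher at an adjusted p under 0.05 (16.1% of all tested genes), the 7 having a median log2 FC of 1.40, while Hoxa6 inside the cluster was lower. Among them Skap2 had 194.3 and 219.4 normalized counts in wtPC12 and 1271 and 687.0 in hrPC12, and its hrPC12 libraries differed 1.85-fold. Around cluster d 3 of 5 tested neighbours were higher at that level, Lnp with a log2 FC of 1.08 (standard error 0.18), as were Hoxd4 and, short of that level, Hoxd3. Hoxd1 in the same cluster overlapped between the clones (log2 FC 0.10). Around cluster c 1 of 9 was lower (16.3% of all tested genes), Map3k12 with a log2 FC of −0.86, and 0 were higher by edgeR at an adjusted or an unadjusted p under 0.05 or by DESeq2 past both thresholds.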

How the data were processed

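RNA of 2 wtPC12 and 2 hrPC12 libraries was sequenced in 100 bp paired-end reads. The submitters' processing notes name the build rn4, TopHat2 2.0.4, HTSeq 0.5.3 and DESeq 1.9.12. The authors deposited raw counts per gene without normalization, and counting mode and annotation release are not given in the sources used here. A table of the authors' own DESeq comparison was not used. The closing rows of reads given to no gene (outside genes, in more than 1 gene or aligned more than once), 58.7% to 62.1% of those listed per library, were left out.

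Counts were analysed in R 4.3.3 with edgeR 4.0.16 (TMM factors, glmQLFit with the legacy option on, glmQLFTest, common dispersion 0.0745) with p values adjusted by Benjamini-Hochberg over the 13726 genes tested. The filter and both thresholds follow the study's methods. DESeq2 1.42.0 was an alternative. The other alternatives were other size factors, other filters, other thresholds, a prior count of 2, the legacy option off, other floors, and each library left out in turn. The test was checked on simulated counts. Bounds set the clone at the floor to 3 reads in each of its libraries. They take the mean of the other clone as observed, so the spread of that mean is not covered. With a library left out, the bound was 2.76 to 3.12 for Hoxc12 and 2.46 to 2.83 for Hoxd10.

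The labels do not say whether the 2 libraries of a clone came from separate cultures, so p values measure only the spread between these libraries. The labels give the libraries no common numbering, and replicate numbers here follow accession order only. The genes and lists were chosen with earlier results of these data known. Named are all Hox genes, of each list the genes past both thresholds or the 3 with the lowest p, and any tested neighbour of the clusters, other than some genes that are not reported here. Ddc, Gata3, Hand2, Lum, Thy1, Dcn, Aldh1a2, Ezh2, Phc2 and Igf2bp1 were named after their values were seen.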

Additional observations from a re-analysis of the deposited data

How the results depend on the processing

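Over 190 recomputed log2 FC of the 16 tested Hox genes, 186 kept their direction and 180 also their side of the thresholds. With a library left out, Hoxb4 ran from −0.24 to 0.39 and Hoxd1 from −0.15 to 0.37. Hoxb4 reversed to −0.11 without wtPC12 replicate 1 and −0.24 without hrPC12 replicate 1, and Hoxd1 to −0.15 without wtPC12 replicate 1 and −0.14 without hrPC12 replicate 2. Downregulated Hox genes numbered 1 as reported, 2 with edgeR's RLE factors, 3 with every gene with a read tested, 3 at an adjusted p under 0.05 with the fold threshold, 4 without it (added after the data were seen), and 0 to 2 with a library left out. Upregulated Hox genes numbered 1 as reported, 7 at an adjusted p under 0.05 without the fold threshold, and 0 to 1 with a library left out. The counts of 0 are edgeR's without wtPC12 replicate 2, where 11 of the Hox genes had an unadjusted p under 0.05 and 0 genes of all passed. In fits with a library left out, the lone library of its clone is assumed to vary like the other clone. By edgeR, Hoxa6 passed with RLE factors (adjusted p = 0.00874), with every gene tested (adjusted p = 0.00877) and without hrPC12 replicate 1 (adjusted p = 0.00519), and Hoxb7 with every gene tested (adjusted p = 0.00823). Hoxb13 (2.07) and Hoxc4 (−2.72) did not pass without wtPC12 replicate 2.

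Over the 5 lists of partner, regulator and flanking genes, 2 downregulated genes became 0 to 2 with a library left out, and 2 upregulated genes became 4 with RLE factors, DESeq2 or an adjusted p under 0.05, 5 with library totals alone or every gene tested, and 0 to 4 with a library left out. The log2 ratio of the summed counts of cluster c was −1.48, −1.41 with library totals alone and −1.56 to −1.43 with a library left out. That of paralogs 4 to 8 was −0.88, −0.92 with RLE factors, −0.82 with library totals and −0.95 to −0.86 with a library left out. That of paralogs 1 to 3 was 0.66 to 1.41, and that of paralogs 9 to 13 1.66 to 1.86, with a library left out. With a floor of 0 reads, 4 in place of 8 Hox genes were at the floor in both clones. The median log2 FC of all tested genes was 0.02 with RLE factors and 0.13 with library totals, against 0.06. No paired analysis was possible because the labels of the clones share no replicate numbers, and no more than 1 letter that could mark a pair.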
